A study of Homo sapiens with 10 samples.

Results

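Interferon response and antigen presentation genes were followed by their histone H3 lysine 27 acetylation (H3K27ac, a mark of active promoters and enhancers) in H1975, an established human lung adenocarcinoma line with mutant EGFR. The members were a list of 51 gene symbols, and their regions were all rows of the annotated count table that carry one of these symbols as the assigned gene. This gave 136 regions of 36 genes, out of 67387 annotated regions of 15633 genes. The cells fell into 3 groups with 3 libraries each. DMSO cells grew for 21 days in drug-free medium and then 3 days with DMSO, the drug solvent. Osimertinib DTP cells are drug-tolerant persisters, the survivors of prolonged treatment, which here spent 24 days at 500 nM of the mutant-EGFR inhibitor osimertinib. Osimertinib DTP + AZD5153 cells, called the combination group here, spent 21 days at the same osimertinib dose before 3 days at 150 nM AZD5153. AZD5153 inhibits BET bromodomain proteins, which bind acetylated lysines. The labels call the replicates biological, all from this 1 line, and do not say whether osimertinib stayed on during the AZD5153 days.

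Type I interferons act through the receptor-bound kinases JAK1 and TYK2 on a complex that holds STAT2 and IRF9 and binds interferon-stimulated response elements (ISREs) in the promoters of antiviral genes. Type II interferon acts on gamma-activated sites (GAS) and through IRF1, and NLRC5 switches on MHC class I genes, whose products show peptides to T cells. Epithelial tumour cells keep many of these genes at a low basal level in the absence of infection, so their promoters can carry H3K27ac without an interferon stimulus.

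By the deposited annotation, 69 of the 136 regions lay within 1 kb of a transcription start (promoter class, 35 genes), 20 lay 1 to 3 kb from one (promoter flank, 11 genes) and 47 lay elsewhere (distal class, 16 genes). Promoters made up 50.7% of the member regions and 36.1% of all annotated regions, and distal regions 34.6% and 54.2%. The gene of a region is the authors' nearest-start assignment, which does not show that the region acts on that gene. Transcription factors were represented by 4 of 5 listed genes, sensors and double-stranded RNA enzymes by 6 of 6, ISG15, ubiquitin and PARP9 genes by 9 of 10 and other antiviral effectors by 16 of 20. Antigen presentation was represented by 1 gene of 10, NLRC5. The 15 members without an annotated region were B2M, BST2, HERC5, HLA-B, HLA-C, HLA-E, HLA-F, IFI27, IFITM2, IRF7, PSMB8, PSMB9, RSAD2, TAP1 and TAP2, and the HLA, TAP and PSMB genes on chromosome 6 were not analysed here.

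Promoter sequences are shown for the members whose summed promoter count differed between groups (ISG20, MX1 and OAS3) and for the gene with the highest promoter level in each role group (IRF9, IFIH1, DTX3L and IFIT3). They are the 250 bases before the RefSeq start nearest the acetylated region, in GRCh38.p14, 5′ to 3′ along the gene, and each start lay inside that region. Capitals mark matches to the core of an ISRE, spelled as GAAA, then any 2 bases, then GAAA, on either strand. OASL and NLRC5, which also qualified, are named only.
ISG20, chr15:88638766-88639015, plus strand: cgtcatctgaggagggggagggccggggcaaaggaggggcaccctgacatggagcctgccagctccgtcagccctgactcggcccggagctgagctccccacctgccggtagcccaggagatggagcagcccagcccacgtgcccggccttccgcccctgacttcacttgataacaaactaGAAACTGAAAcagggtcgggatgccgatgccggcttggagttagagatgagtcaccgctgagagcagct
OAS3, chr12:112938224-112938473, plus strand: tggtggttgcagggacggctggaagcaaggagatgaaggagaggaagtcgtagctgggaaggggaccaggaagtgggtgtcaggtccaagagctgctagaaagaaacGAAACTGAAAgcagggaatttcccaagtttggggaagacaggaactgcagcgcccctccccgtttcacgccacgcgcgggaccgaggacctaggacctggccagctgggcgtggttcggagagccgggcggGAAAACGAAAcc
MX1, chr21:41420308-41420557, plus strand: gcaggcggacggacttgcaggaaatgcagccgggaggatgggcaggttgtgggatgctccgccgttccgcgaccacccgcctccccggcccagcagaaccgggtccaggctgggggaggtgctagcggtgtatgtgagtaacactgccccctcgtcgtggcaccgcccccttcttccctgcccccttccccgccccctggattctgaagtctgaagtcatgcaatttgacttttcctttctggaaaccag
IRF9, chr14:24161015-24161264, plus strand: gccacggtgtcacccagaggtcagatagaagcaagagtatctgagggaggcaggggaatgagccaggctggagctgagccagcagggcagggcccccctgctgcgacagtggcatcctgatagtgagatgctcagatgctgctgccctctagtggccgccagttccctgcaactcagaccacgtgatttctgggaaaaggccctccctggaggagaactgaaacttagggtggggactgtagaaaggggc
IFIH1, chr2:162318685-162318934, minus strand: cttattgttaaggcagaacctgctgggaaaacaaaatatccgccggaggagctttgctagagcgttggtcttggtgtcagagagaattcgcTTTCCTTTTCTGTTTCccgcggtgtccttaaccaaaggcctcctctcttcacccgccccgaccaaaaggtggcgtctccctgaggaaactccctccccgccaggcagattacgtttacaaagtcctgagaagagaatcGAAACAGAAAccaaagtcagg
DTX3L, chr3:122564088-122564337, plus strand: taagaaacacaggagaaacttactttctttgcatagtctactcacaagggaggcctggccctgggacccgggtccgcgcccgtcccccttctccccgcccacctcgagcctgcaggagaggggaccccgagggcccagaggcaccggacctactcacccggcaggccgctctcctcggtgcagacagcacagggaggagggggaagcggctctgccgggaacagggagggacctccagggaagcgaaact
IFIT3, chr10:89327747-89327996, plus strand: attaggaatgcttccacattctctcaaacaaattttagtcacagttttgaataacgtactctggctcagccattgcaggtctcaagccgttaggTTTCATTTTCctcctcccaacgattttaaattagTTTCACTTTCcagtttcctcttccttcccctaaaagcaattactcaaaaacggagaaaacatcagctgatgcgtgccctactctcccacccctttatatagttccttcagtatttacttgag
The nearest match began 12 bases before the OAS3 start, 21 before IFIH1, 69 before ISG20 and 122 before IFIT3. The windows shown for IRF9, DTX3L and MX1 held none. MX1 has 3 RefSeq starts, and 1 of them, not shown, carried an ISRE core. RefSeq promoters were given for 29 of the 36 genes with a region. An ISRE core was found at 1 or more starts of 15 of the 29 genes, and at 17 of their 39 starts (43.6%). Over all 35116 RefSeq promoters of this length the share was 3.02%. A GAS site, spelled TTCNNNGAA on either strand, was found at 8 of the 39 starts (20.5%), against 6.57% of all promoters. The motifs can overlap each other and were counted separately. A match describes letters in a window, not a bound factor.

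Total counts over all regions ranged from 6263443 to 10463351 per library. The lowest total belonged to combination replicate 3. In this library and in osimertinib DTP replicate 2, promoter regions of all genes took 52.9% and 50.8% of the total count, against 29.3% to 34.8% in the other 7 libraries. Member promoters moved with them: their summed count was 0.128% of the total in osimertinib DTP replicate 2 and 0.119% in combination replicate 3, and 0.0767% to 0.0959% elsewhere. Member distal regions took 0.0301% in combination replicate 3, the lowest share of the 9, and 0.0430% to 0.0668% in the others. Values without each of these 2 libraries are given below where they move a result. The epithelial markers KRT8, KRT18, KRT19, EPCAM, CDH1 and NKX2-1 all had annotated promoter regions, at a median of 10.8 to 62.4 CPM (counts scaled to 1e6 per library after TMM correction of library sizes). Among the markers listed for other cell types, PTPRC, CD3E, LYZ, PECAM1 and VWF had no annotated promoter region, and CSF1R, CD14, COL1A1 and PDGFRB had medians of 3.90 to 34.1 CPM. As the libraries are of bulk cells, fewer cells with the mark and less of it per cell cannot be told apart.

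The first comparison asks where H3K27ac of interferon genes differs between osimertinib DTP and DMSO cells. A region was called at an adjusted p under 0.05 in edgeR's quasi-likelihood test, fitted on 157919 regions with Benjamini-Hochberg adjustment. None of the 69 member promoters and none of the 20 flank regions was called. At an unadjusted p under 0.05 there were 2 promoters and 2 flank regions. Among all annotated promoters 2.78% were called higher and 1.85% lower, and among flank regions 6.90% and 7.36%. Of the 47 distal regions, 3 were higher in osimertinib DTP (HERC6, IFIT2 and IRF1) and 7 were lower (4 of IFI44 and 1 each of ISG20, PARP14 and SP110). That is 6.38% and 14.9%, against 9.79% higher and 10.8% lower among all annotated distal regions, so neither share stood far from the background. The 4 IFI44 regions lie within 1 stretch, chr1:78688523-78692662. The median log2 fold change of member promoters was 0.43 (53 of 69 above 0) and that of all annotated promoters 0.35. Without osimertinib DTP replicate 2 these medians were 0.08 (35 above 0) and -0.15, and the sums of promoter counts per gene described below gave 0.15 for members and 0.01 for all genes. Distal medians were -0.23 for members and -0.06 for all, and leaving out 1 library moved the member value between -0.52 (without DMSO replicate 1) and -0.01 (without osimertinib DTP replicate 1), with -0.02 without DMSO replicate 2. Without combination replicate 3, which enters the fit through its spread, 23 member regions were called, 8 higher (5.88%) and 15 lower (11.03%). Of all annotated regions 15.7% and 15.8% were called in that fit, so the member shares lay below the background. Without DMSO replicate 2 or 3, or osimertinib DTP replicate 1, 2 or 3, the calls numbered 2, 6, 6, 5 and 4. Those were 1.5%, 4.4%, 4.4%, 3.7% and 2.9% of members, beside 1.3%, 3.4%, 7.7%, 4.9% and 4.7% of all annotated regions.

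Between the combination group and DMSO, 4 of 69 member promoters were called, 2 higher (NLRC5 and UBE2L6) and 2 lower (ISG20 and OASL). All annotated promoters were called higher in 5.32% and lower in 3.18%. Of the flank regions, 2 of NLRC5 were higher and none was lower, against 10.6% and 12.7% of all flank regions. Distal regions were called higher in 4 cases (8.51% of the members, 14.3% of all) and lower in 12 (25.5% of the members, 16.1% of all). Of the 12 lower regions, 4 lie at IFI44, 2 at OASL, 2 at SP110 and 1 each at IFIH1, ISG20, NLRC5 and PARP14. The member promoter median was 0.61 and that of all annotated promoters 0.42 (distal medians -0.37 and 0.03). Without combination replicate 3 the promoter medians were 0.25 and -0.00 and the distal medians -0.08 and 0.16. The distal member median was -0.06 without DMSO replicate 2, -0.60 without DMSO replicate 1 and -0.71 without combination replicate 2, and the summed promoter counts gave 0.07 for members and 0.02 for all genes. Library sizes without TMM lowered the median of all annotated regions from 0.24 to 0.01 here and from 0.18 to 0.06 in osimertinib DTP. The member calls then split into 4 higher and 14 lower here, where TMM gave 8 and 14, and into 1 higher and 8 lower in osimertinib DTP, where TMM gave 3 and 7. Without TMM 13.24% of members and 20.55% of all annotated regions were called here, and 6.62% and 11.42% in osimertinib DTP. Without combination replicate 3, 13 member promoters were higher and 6 lower, beside 8.35% and 9.45% of all promoters. The total rose from 22 member regions (16.2% of members, 21.8% of all annotated regions) to 45 (33.1% and 36.3%). Without DMSO replicate 2 the total was 9 (6.62% and 7.99%), and without DMSO replicate 3 it was 8 (5.88% and 9.45%).

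**Figure D1:**
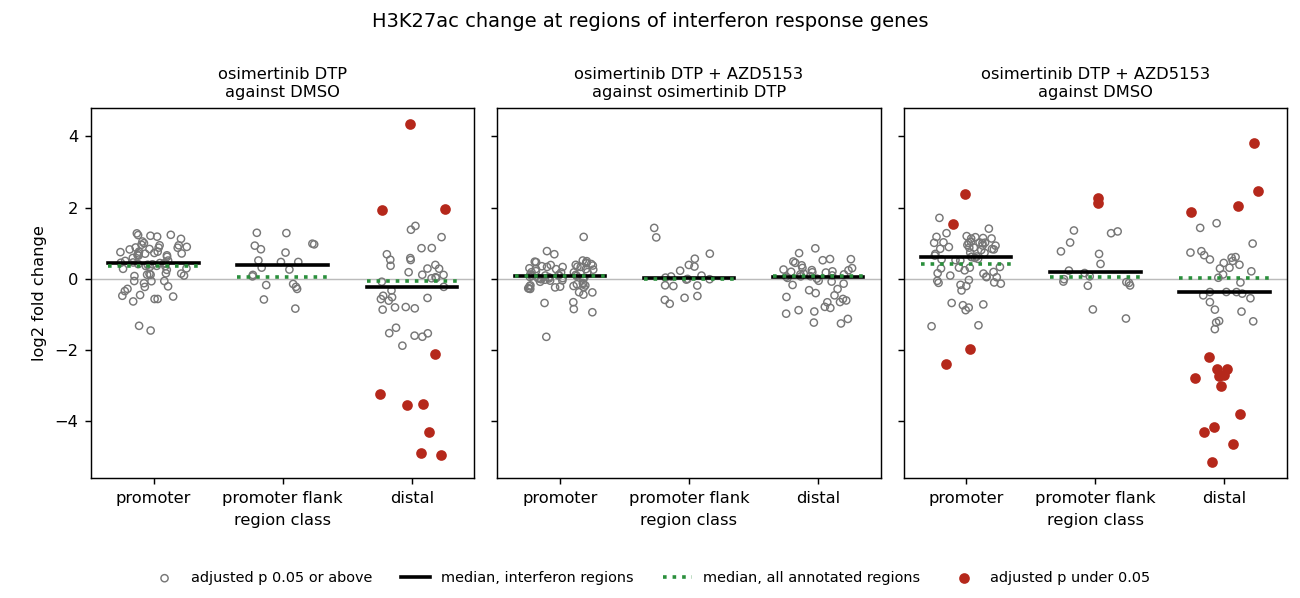
Log2 fold change of H3K27ac (y axis) at each of the 136 member regions, by region class (x axis), in the 3 comparisons. Filled points passed an adjusted p of 0.05, solid bars are member medians and dotted bars medians of all annotated regions. The called regions sit mostly in the distal class and below 0, and none is filled in the middle panel.

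The third comparison, the combination group against osimertinib DTP, called none of the 136 member regions (edgeR, and 0 by DESeq2). An unadjusted p under 0.05 was found at 3 regions with edgeR and at 4 with DESeq2. Of all annotated regions, edgeR called 0% and DESeq2 12 higher and 35 lower. The largest member differences, not called, were at the OASL promoter (log2 change -1.63 ± 0.61 SE) and at the NLRC5 flank region chr16:57060739-57061240 (1.43 ± 0.50 SE). Both comparisons with DMSO share the DMSO libraries, and the combination group shares its osimertinib course with the DTP group, so their values stand side by side below and were not tested for likeness.

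The 4 transcription factors with an annotated region carried H3K27ac at their promoters in every group. STAT2, a signal transducer of the type I response, had 7.62, 17.1 and 11.5 CPM at its main promoter region for DMSO, 12.6, 48.6 and 24.2 for osimertinib DTP and 13.4, 30.2 and 29.6 for the combination group. The main promoter region is the promoter region of a gene with the highest mean CPM. Its changes of 1.23 ± 0.59 and 1.01 ± 0.59 against DMSO did not pass (adjusted p = 0.199 and 0.256). IRF9, the DNA-binding partner of STAT2, measured 19.8 to 40.0 CPM in DMSO and 16.5 to 17.9 in the combination group, below all DMSO libraries, with a log2 change of -0.74 ± 0.52 (adjusted p = 0.354). Main promoters of IRF1 and of IRF2, an antagonist of IRF1 at shared sites, were highest in osimertinib DTP replicate 2 and combination replicate 3, the libraries rich in promoter counts (45.6 and 54.7 CPM for IRF1, 10.2 to 15.5 in the other 7).

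IRF1 was the transcription factor with a called distal region. It lies at chr5:132505698-132506199, at -14921 bp from the IRF1 start and in an intron of a RAD50 transcript by the annotation. Its CPM were 1.09, 1.65 and 1.01 for DMSO, 4.78, 5.43 and 4.13 for osimertinib DTP and 7.41, 7.91 and 5.61 for the combination group. All 6 drug-treated libraries lay above all DMSO libraries. The log2 change was 1.93 ± 0.55 in osimertinib DTP (adjusted p = 0.0325) and 2.48 ± 0.56 in the combination group (adjusted p = 0.00672). MACS2 peaks of the authors overlapped it in 0 of 3 DMSO, 3 of 3 osimertinib DTP and 3 of 3 combination libraries. The peak list of osimertinib DTP replicate 3, used in this and every other peak count here, is named for H1875, another line, where its label gives H1975. The osimertinib DTP call did not hold without any 1 of the 6 DMSO and osimertinib DTP libraries (adjusted p up to 0.183), and the combination call did not hold without DMSO replicate 3 (adjusted p = 0.0594). Nearer IRF1, 4 regions at -4914 to -7097 bp were stronger, at 17.6 to 72.4 CPM, and none of them passed.

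Among sensors and double-stranded RNA enzymes, lower acetylation was called at regions of IFIH1 and OASL, and in the promoter sums also at OAS3, and nothing was called higher. IFIH1 encodes MDA5, a sensor of long double-stranded RNA. Its distal region chr2:162261298-162261799 is intergenic and 6338 bp from the start of the transcript used by the annotation. The main IFIH1 promoter region lies at another start, farther off at chr2:162318286-162318787. The distal region had 16.6, 41.9 and 24.9 CPM for DMSO, 8.99, 6.82 and 6.85 for osimertinib DTP and 5.91, 7.68 and 0.58 for the combination group. The groups treated with drug lay below every DMSO library. The change was -1.88 ± 0.68 in osimertinib DTP (adjusted p = 0.0857) and -2.53 ± 0.70 in the combination group (adjusted p = 0.0201). When distal counts were summed per gene and 8143 genes were fitted, the same single region also passed in osimertinib DTP (-1.68 ± 0.50, adjusted p = 0.0258). The region's call in the combination group did not hold without DMSO replicate 2 or 3 (adjusted p up to 0.110). The IFIH1 promoter itself stayed between 8.52 and 23.2 CPM in all 9 libraries, with log2 changes of 0.11 ± 0.56 and 0.06 ± 0.56.

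OASL encodes an OAS-like protein that lacks the enzyme activity of the OAS family and acts with the RNA sensor RIG-I. Its promoter region chr12:121038922-121039423 had 8.98, 11.9 and 5.13 CPM for DMSO, 5.16, 11.1 and 4.23 for osimertinib DTP and 2.00, 3.14 and 1.35 for the combination group. DMSO and DTP libraries overlapped, and the combination libraries lay below both. The log2 change was -0.35 ± 0.57 in osimertinib DTP (adjusted p = 0.775) and -1.98 ± 0.61 in the combination group (adjusted p = 0.0317). Inside the gene, a region in intron 1 fell by 2.54 ± 0.66 on the log2 scale in the combination group (adjusted p = 0.0145) and one over exon 2 fell by 2.19 ± 0.62 (adjusted p = 0.0218). The promoter call was lost without any DMSO replicate, osimertinib DTP replicate 1 or combination replicate 1 (adjusted p up to 0.150). The intron call was lost without DMSO replicate 2 (0.0760) and the exon call without DMSO replicate 2 or 3 or combination replicate 1 (up to 0.113). OAS3, which makes the messenger that activates RNase L, had 1 promoter region. In the fit of promoter counts summed per gene, OAS3 measured 28.0, 46.5 and 37.2 per 1e6 promoter counts for DMSO, 24.6, 20.7 and 12.5 for osimertinib DTP and 15.6, 14.9 and 19.1 for the combination group. Its change was -0.94 ± 0.33 in osimertinib DTP (adjusted p = 0.132) and -1.17 ± 0.33 in the combination group (adjusted p = 0.0443). Without DMSO replicate 2 or 3, osimertinib DTP replicate 1 or combination replicate 1 or 2 it did not pass (adjusted p up to 0.167). In the fit of all regions the same OAS3 region was not called (-0.72 ± 0.63, adjusted p = 0.471), and the groups overlapped, with 8.25 to 17.8 CPM for DMSO and 5.003 to 12.4 for the combination group. The OAS1 and OAS2 promoters, and that of EIF2AK2, the kinase PKR, were not called in any comparison.

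The genes of ISG15 conjugation, ubiquitin ligation and ADP-ribosylation held the highest member promoter, DTX3L (mean 43.3 CPM over the 9 libraries, a region that also overlaps PARP9), followed in this group by a region assigned to ISG15 (38.9) and by TRIM25 (36.8). ISG15 is the ubiquitin-like protein itself, UBE2L6 its conjugating enzyme and USP18 the protease that removes it. HERC6 is counted here among the ligases. The strongest promoter region assigned to ISG15, chr1:1000416-1000917, overlaps no RefSeq gene and lies upstream of the ISG15 start. It had 20.4, 29.1 and 20 CPM for DMSO, 27.4, 92.1 and 19.8 for osimertinib DTP and 25.7, 26.6 and 88.9 for the combination group. Both high values came from the libraries rich in promoter counts, and the other 7 ranged from 19.8 to 29.1. The region at the ISG15 start itself, chr1:1013483-1013984, had 17.96, 27.9 and 22.8 CPM for DMSO, 17.6, 39.4 and 17.5 for osimertinib DTP and 11.3, 13.03 and 30.5 for the combination group, with no call. UBE2L6 had a called promoter region, chr11:57566298-57566799, 504 bp from a start. Its values were 5.80, 3.92 and 3.62 CPM for DMSO, 9.85, 8.21 and 9.57 for osimertinib DTP and 14.7, 12.2 and 12 for the combination group, and the 3 groups did not overlap. The log2 change was 1.05 ± 0.51 in osimertinib DTP (adjusted p = 0.205) and 1.54 ± 0.52 in the combination group (adjusted p = 0.0454). Leaving out any 1 of the 7 libraries other than osimertinib DTP replicate 2 and combination replicate 3 ended this call (adjusted p up to 0.221).

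HERC6 had the strongest gain among the members. The region chr4:88351801-88352302 lies at -26437 bp from the HERC6 start, over the uncharacterised RefSeq gene LOC124900731. It held 0.272, 0.310 and 0.101 CPM in DMSO, which is 7 reads over the 3 libraries beside 8 reads in the input library. In osimertinib DTP it had 2.68, 5.15 and 6.75 CPM, and in the combination group 2.81, 6.28 and 0.966. The log2 change was 4.33 ± 0.82 in osimertinib DTP (adjusted p = 0.00537) and 3.82 ± 0.81 in the combination group (adjusted p = 0.00528), and it passed in all 9 fits that left out 1 library. Peaks overlapped it in 0 of 3 DMSO, 3 of 3 osimertinib DTP and 2 of 3 combination libraries. PARP14, a mono-ADP-ribosyltransferase, went the other way at chr3:122669490-122669991, at -10848 bp. DMSO libraries had 4.17, 13 and 9.35 CPM, osimertinib DTP 1.24, 0.557 and 0.403, and the combination group 1.90, 1.63 and 0.387. All DMSO libraries lay above the others, with log2 changes of -3.55 ± 0.72 (adjusted p = 0.00727) and -2.69 ± 0.68 (adjusted p = 0.0130). The osimertinib DTP call did not hold without DMSO replicate 2 or osimertinib DTP replicate 2 or 3 (adjusted p up to 0.0644), nor the combination call without DMSO replicate 2 or 3 (up to 0.0813). The PARP14 main promoter had changes of 0.41 ± 0.60 and 0.59 ± 0.60, neither of them called.

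**Figure D2:**
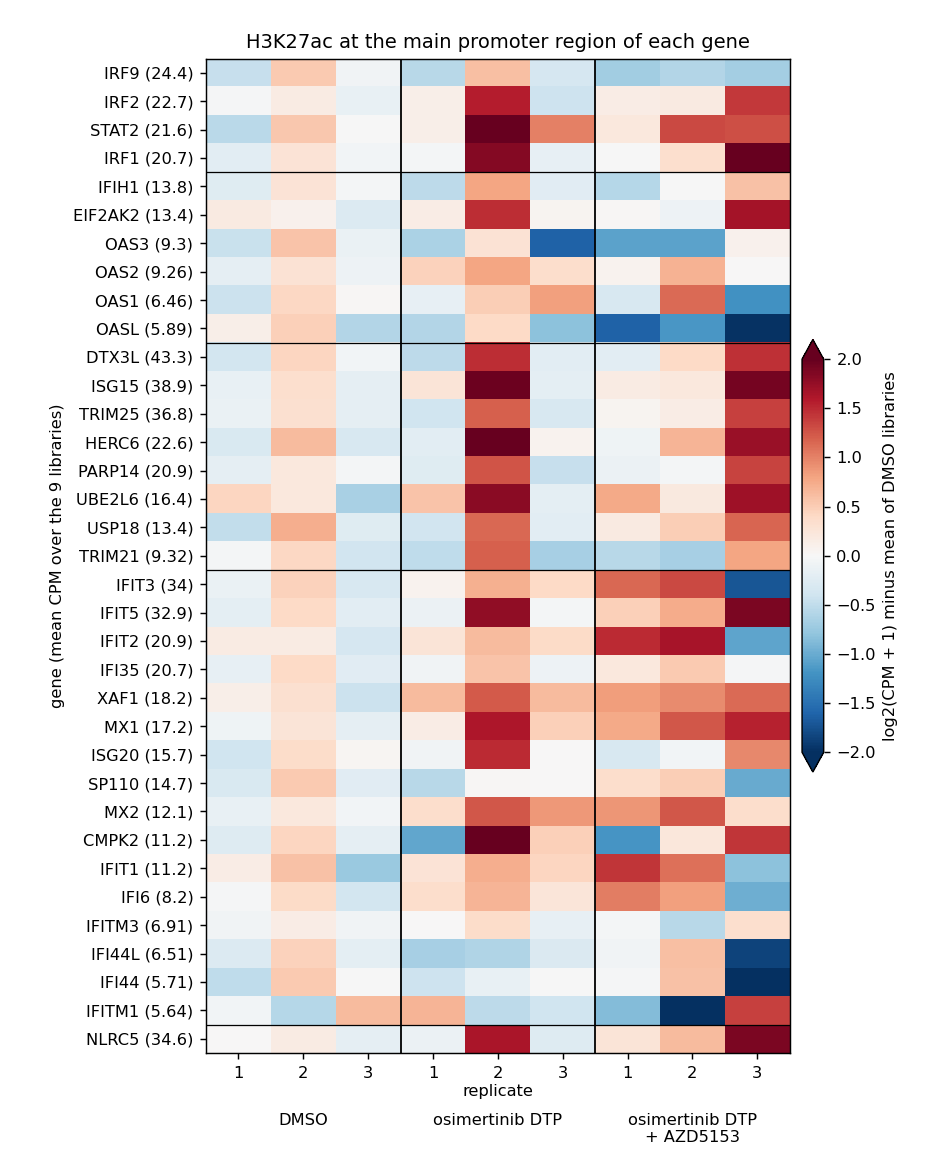
H3K27ac at the main promoter region of 35 genes (rows, grouped by role, mean CPM in brackets) in the 9 libraries (columns), as log2(CPM + 1) minus the mean of the DMSO libraries. Osimertinib DTP replicate 2 and combination replicate 3 hold the highest value of 25 of the 35 genes, while the IFIT1, IFIT2 and IFIT3 rows are highest in combination replicates 1 and 2 and low in replicate 3.

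Across the 35 main promoters, mean levels ran from 5.64 CPM (IFITM1) to 43.3 CPM (DTX3L) with a median of 15.7. The highest library was osimertinib DTP replicate 2 for 17 genes and combination replicate 3 for 8. For 23 genes the 3 group means lay within 2-fold of each other. Authors' peaks overlapped all 35 main promoters in at least 1 library and 27 of them in all 9. In the fit of promoter counts summed per gene, 0 of the 35 genes were called in osimertinib DTP against DMSO (4 at an unadjusted p under 0.05 with edgeR, and 0 called by DESeq2), beside 2.80% higher and 3.35% lower of 12295 genes. In the combination group 5 were called, MX1 and NLRC5 higher and ISG20, OAS3 and OASL lower, beside 6.89% and 7.04% of all genes.

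The other antiviral effectors held the strongest losses. IFI44, a microtubule-associated interferon-induced protein, has its main promoter region at chr1:78649725-78650226. Farther off, in intergenic sequence, it had 4 called regions. They lie 25788 to 29426 bp from the start of the annotated transcript, which is not the start at that promoter. The strongest, chr1:78691582-78692083, had 9.70, 27.3 and 18.9 CPM for DMSO, 1.15, 0.139 and 0.403 for osimertinib DTP and 0.802, 0.465 and 0.193 for the combination group. In reads, DMSO held 559 over its 3 libraries, osimertinib DTP 17, the combination group 13 and the input 13. The log2 change was -4.96 ± 0.76 (adjusted p = 0.00304) and -5.13 ± 0.78 (adjusted p = 0.00133), and both calls passed in all 9 fits that left out 1 library. In osimertinib DTP the regions starting at 78688523 and 78692161 did not pass without DMSO replicate 2 (adjusted p = 0.0581 and 0.0546), and that at 78690433 without any 1 of the 6 DMSO and osimertinib DTP libraries (up to 0.127). In the combination group the last of these did not pass without DMSO replicate 3 (0.0515). Summed over the 4 regions, IFI44 fell by 4.38 ± 0.72 in osimertinib DTP (adjusted p = 0.00161) and by 4.65 ± 0.74 in the combination group (adjusted p = 0.000911). Peaks overlapped each of the 4 regions in 3 of 3 DMSO libraries and in none of the 6 others. At the IFI44 promoter, by contrast, levels were 3.99 to 9.19 CPM in DMSO and 4.30 to 6.04 in osimertinib DTP, a change of -0.28 ± 0.67 that did not pass (adjusted p = 0.850).

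ISG20, an exonuclease that degrades viral RNA, differed at both classes. Its distal region chr15:88659705-88660206, 7669 bp from a start, had 6.98, 12.9 and 7.04 CPM for DMSO, 1.53, 0.557 and 0.705 for osimertinib DTP and 0.401, 0.465 and 1.16 for the combination group. The DMSO libraries lay above all others, and the log2 changes were -3.23 ± 0.65 (adjusted p = 0.00685) and -3.79 ± 0.69 (adjusted p = 0.00236). The osimertinib DTP call did not hold without DMSO replicate 2 or osimertinib DTP replicate 3 (adjusted p up to 0.0654). A promoter region at -274 bp from an internal start, chr15:88649478-88649979, fell by 2.39 ± 0.65 in the combination group (adjusted p = 0.0172), with a change of -1.45 ± 0.60 in osimertinib DTP (adjusted p = 0.131). Its call did not hold without DMSO replicate 2 or 3 or combination replicate 1 or 2 (adjusted p up to 0.0958). At the main ISG20 promoter, whose sequence is shown above, levels were 8.80 to 15.7 CPM in DMSO and 9.42 to 24.4 in the combination group, a change of 0.29 ± 0.60 (adjusted p = 0.786). The sum over its 4 promoter regions still fell by 0.69 ± 0.18 in the combination group (adjusted p = 0.0368), but not without DMSO replicate 2 or 3, osimertinib DTP replicate 1 or combination replicate 1 or 2 (adjusted p up to 0.148).

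SP110, a nuclear body protein, has its main promoter region at chr2:230219988-230220489. A pair of called regions lies farther off, over the uncharacterised RefSeq gene LOC107985995. They are 32759 and 33356 bp from the start of the annotated transcript, which is not the start at that promoter. The first, chr2:230137655-230138156, measured 4.63, 10.5 and 9.86 CPM for DMSO, 1.63, 2.09 and 2.01 for osimertinib DTP and 1.10, 1.16 and 0.773 for the combination group. These 3 groups did not overlap. The log2 changes were -2.12 ± 0.56 (adjusted p = 0.0238) and -3.003 ± 0.60 (adjusted p = 0.00370). The osimertinib DTP call did not hold without DMSO replicate 2 or 3 or any osimertinib DTP replicate (adjusted p up to 0.145). The second passed in the combination group (-2.72 ± 0.73, adjusted p = 0.0176), though not without DMSO replicate 2 or 3 or combination replicate 2 (up to 0.0802). Its change in osimertinib DTP was -1.60 ± 0.68 (adjusted p = 0.139), and the difference between the treated groups was not called. MX1, a GTPase that blocks viral nucleocapsids, gained at its single promoter region. In the promoter fit its level was 30.1, 30.6 and 29.4 per 1e6 promoter counts for DMSO, 36.8, 44.6 and 54.7 for osimertinib DTP and 52.1, 71.0 and 46.1 for the combination group. All DMSO libraries lay below the others, and the change was 0.59 ± 0.24 in osimertinib DTP (adjusted p = 0.202) and 0.91 ± 0.24 in the combination group (adjusted p = 0.0372). In the fit of all regions the same region changed by 1.28 ± 0.55 and was not called (adjusted p = 0.118). The promoter fit lost the MX1 call without any 1 of the 8 libraries other than combination replicate 3 (adjusted p up to 0.153).

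**Figure D3:**
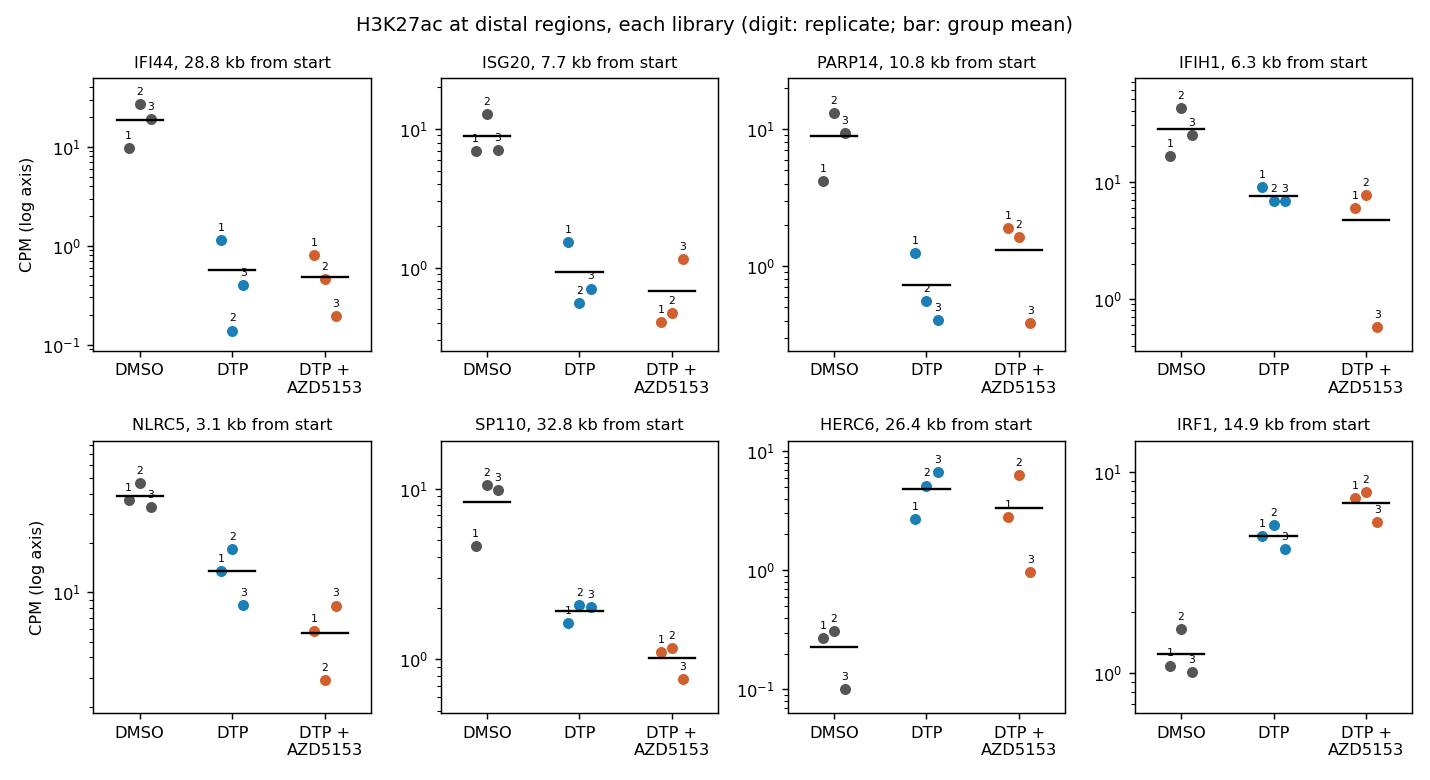
H3K27ac level (CPM, log axis) in each of the 9 libraries at the called distal region with the largest change of 8 genes, by group (x axis), with bars at the group means and digits for the replicate. In IFI44, ISG20, PARP14, IFIH1, NLRC5 and SP110 every DMSO library lies above every other library, and in HERC6 and IRF1 below. Distances in the panel titles are to the start of the annotated transcript.

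Summed distal counts were available for 16 members. In osimertinib DTP, IFI44, IFIH1, ISG20 and PARP14 were lower and none was higher, beside 18.6% higher and 15.9% lower of 8143 genes. The same 4 were lower in the combination group, beside 23.7% and 19.2%. The median change over the 16 was -0.29 and -0.45, against 0.12 and 0.21 over all genes. The first was -0.18 without osimertinib DTP replicate 2 and -0.19 without DMSO replicate 3, and the second -0.27 without combination replicate 1. Without TMM the median of all genes in the combination group was -0.02 and that of the members -0.67. The IFI44, ISG20 and PARP14 sums passed in all 9 fits that left out 1 library, in both comparisons. The IFIH1 sum did so in the combination group, and in osimertinib DTP it did not pass without DMSO replicate 2 or 3, or osimertinib DTP replicate 2 or 3, with an adjusted p of up to 0.105.

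IFIT genes encode interferon-induced antiviral proteins and lie side by side on chromosome 10. IFIT2 had 2 called distal regions, and its promoter regions lie at 2 starts, the stronger one upstream of the RefSeq start. The region chr10:89295734-89296235, in an intron of a long IFIT2 transcript, had 1.45, 1.03 and 1.01 CPM for DMSO, 4.11, 3.34 and 6.24 for osimertinib DTP and 5.91, 6.28 and 2.32 for the combination group. DMSO lay below all others, with changes of 1.96 ± 0.60 (adjusted p = 0.0429) and 2.05 ± 0.60 (adjusted p = 0.0248). The first call did not hold without any DMSO or osimertinib DTP replicate or combination replicate 1 (adjusted p up to 0.196), nor the second without any DMSO replicate or combination replicate 1 or 2 (up to 0.127). The region chr10:89275040-89275541, in an intron of the neighbouring gene LIPA, was called higher in the combination group (1.86 ± 0.62, adjusted p = 0.0464), with 3.90, 5.99 and 5.83 CPM in DMSO and 16.5, 34.0 and 6.57 there. Leaving out any 1 of the 8 libraries other than combination replicate 3 ended this call (adjusted p up to 0.242), and so did the replicate block (0.0707).

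The combination libraries disagreed along this cluster. The main IFIT2 promoter region lies at -18.19 kb from the IFIT2 RefSeq start, over LIPA and LOC124902477. It had 15.4, 15.4 and 10.6 CPM for DMSO, 16.5, 21.6 and 18.1 for osimertinib DTP and 39.9, 44.6 and 5.99 for the combination group. IFIT3 had 22.7, 34.7 and 19.7 CPM, then 26.4, 41.6 and 33.3, then 56.7, 63.8 and 6.96. Combination replicates 1 and 2 were thus the highest of the 9 libraries and replicate 3 the lowest. The changes of 1.13 ± 0.62 and 0.73 ± 0.63 were not called (adjusted p = 0.222 and 0.465). Without combination replicate 3, the IFIT2 main promoter changed by 1.61 (adjusted p = 0.00606) and that of IFIT3 by 1.22 (adjusted p = 0.0305). The IFIT1 promoter then changed by 1.26 (adjusted p = 0.0410). IFIT5 differed from its neighbours, since its promoter was highest in combination replicate 3 (73.1 CPM) and osimertinib DTP replicate 2 (68.1 CPM), at 16.4 to 32.8 in the other 7.

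**Figure D4:**
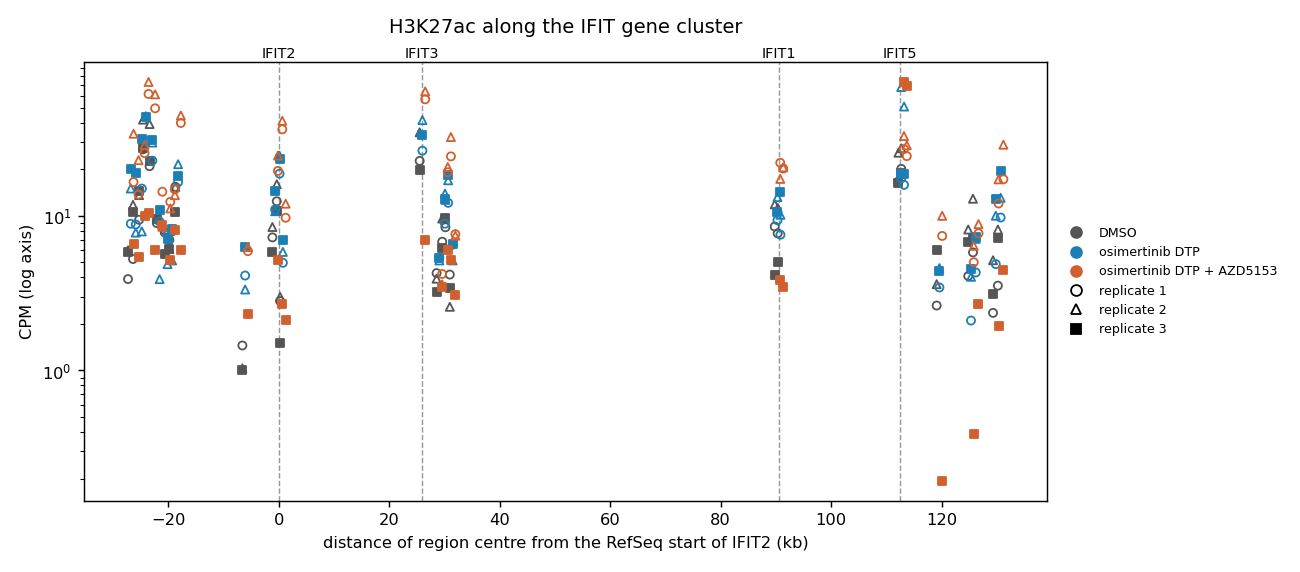
H3K27ac level (CPM, log axis) at the 27 regions assigned to IFIT1, IFIT2, IFIT3 and IFIT5, against the distance of the region centre from the RefSeq start of IFIT2 (kb), with a colour per group and a symbol per replicate. Groups are shifted slightly sideways, and dashed lines mark the gene starts. At the IFIT3 and IFIT1 starts the open combination symbols (replicates 1 and 2) lie highest and the filled combination squares (replicate 3) lowest, while at the IFIT5 start those squares are highest.

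NLRC5, the activator of MHC class I transcription, had 13 regions and changed in both directions. In intron 1 of an NLRC5 transcript, chr16:57000215-57000716 had 36.9, 46.8 and 33.1 CPM for DMSO, 13.6, 18.5 and 8.36 for osimertinib DTP and 5.81, 2.91 and 8.31 for the combination group. The groups did not overlap. The change was -1.53 ± 0.55 in osimertinib DTP (adjusted p = 0.0809) and -2.78 ± 0.58 in the combination group (adjusted p = 0.00458), and the latter passed in all 9 fits that left out 1 library. Further into the gene, 71.4 kb from the RefSeq start, the flank region chr16:57060739-57061240 had 9.79, 7.54 and 6.13 CPM for DMSO, 13, 17.4 and 11.4 for osimertinib DTP and 36.5, 32.7 and 43.3 for the combination group. Again the 3 groups did not overlap, with changes of 0.83 ± 0.50 (adjusted p = 0.321) and 2.26 ± 0.52 (adjusted p = 0.00747). Its neighbours at chr16:57059538-57060039 and chr16:57061406-57061907 gained 2.38 ± 0.70 and 2.13 ± 0.60 in the combination group (adjusted p = 0.0257 and 0.0208). None of these 3 gains held without DMSO replicate 2 or 3 (adjusted p up to 0.133), and the last did not hold without DMSO replicate 1 either.

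The main NLRC5 promoter, at the RefSeq start, had 21.5, 24.1 and 18.8 CPM for DMSO, 19.7, 68.3 and 17.7 for osimertinib DTP and 25.8, 33.6 and 81.6 for the combination group. The 2 libraries rich in promoter counts stood apart, and the change of 1.13 ± 0.61 in the combination group was not called (adjusted p = 0.213). Summed over 3 promoter regions NLRC5 gained 0.73 ± 0.20 in the combination group (adjusted p = 0.0399). This sum lost its call without any of DMSO replicates 1, 2 and 3, osimertinib DTP replicates 1 and 3 and combination replicate 2, where its adjusted p reached 0.159, and under the replicate block (0.0740). The block also ended the promoter sum calls of MX1 (0.0625) and OAS3 (0.0854). None of the 5 promoter sums called in this comparison passed in all 9 such fits.

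**Figure D5:**
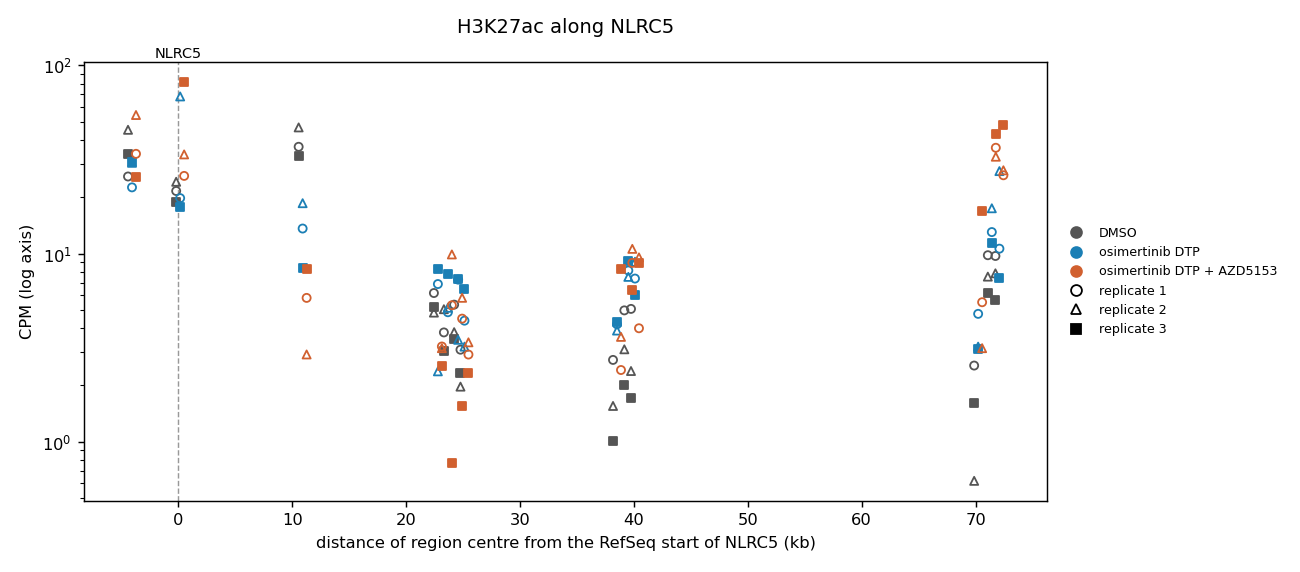
H3K27ac level (CPM, log axis) at the 13 NLRC5 regions against the distance of the region centre from the RefSeq start (kb), with a colour per group and a symbol per replicate; groups are shifted slightly sideways. DMSO is highest at the intron region near 10.9 kb, and the combination group is highest at the flank regions near 71.4 and 72.1 kb.

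Calls of single regions were less steady than the distal sums. In osimertinib DTP against DMSO, 2 of the 10 region calls (HERC6 and the strongest of IFI44) passed in all 9 fits that left out 1 library. In the combination group 7 of 22 did, namely HERC6, 3 of IFI44, the distal region of ISG20, the NLRC5 intron and 1 of SP110. For each of the other calls, the libraries whose removal ended it included DMSO replicate 2 or DMSO replicate 3. No call changed sign in any of these fits.

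Some members without an annotated region had counted regions close by. BST2 (tetherin) shares its start with the long non-coding gene BISPR, to which the annotation gave 2 regions, at 10.2 to 35.8 CPM over the libraries and with no call. RSAD2 encodes viperin, which makes a nucleotide that ends viral RNA chains. It shares the region chr2:6865790-6866291 with CMPK2, a mitochondrial nucleotide kinase, where levels were 5.62, 9.71 and 6.03 CPM for DMSO, 2.87, 35.8 and 10.1 for osimertinib DTP and 2.505, 8.26 and 20.3 for the combination group. A second RSAD2 region without a gene assignment, chr2:6877696-6878197, lies at another RefSeq start of the gene and was singled out after its values were seen. It had 0.998, 1.24 and 1.41 CPM for DMSO, 2.29, 14.8 and 15.6 for osimertinib DTP and 1.10, 7.80 and 2.71 for the combination group. The change was 3.15 in osimertinib DTP (adjusted p = 0.0190) and 1.67 in the combination group (adjusted p = 0.147), with replicate 1 of each treated group near the DMSO level. Regions at HERC5 and IFITM2 stayed at 0.233 to 7.15 CPM with no call.

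A list of 33 further genes of interferon signalling and antigen presentation had 99 regions of 27 genes. In osimertinib DTP 4 of these regions were higher and 5 lower, in the combination group against DMSO 11 were higher and 5 lower, and 0 differed between both treated groups. Of all annotated regions 6.98% were higher and 7.22% lower in osimertinib DTP, and 10.7% and 11.1% in the combination group, so none of these shares stood far above the background. Of 26 genes with promoter counts, 2 rose in osimertinib DTP and 1 fell, beside 2.80% higher and 3.35% lower of 12295 genes. In the combination group against DMSO 3 of the 26 rose and 1 fell, beside 6.89% and 7.04% of all genes. JAK1, the kinase shared by type I and type II receptors, rose by 1.18 ± 0.21 in osimertinib DTP (adjusted p = 0.0142) and by 1.84 ± 0.21 in the combination group (adjusted p = 0.00247). IFNGR1, a chain of the type II interferon receptor, rose by 0.73 ± 0.15 (adjusted p = 0.0239) and by 1.07 ± 0.15 (adjusted p = 0.00370). IKBKE, a kinase that activates IRF3 and IRF7, fell by 1.10 ± 0.23 (adjusted p = 0.0239) and by 2.22 ± 0.24 (adjusted p = 0.00223). ERAP1, a peptidase that trims MHC class I peptides, rose in the combination group by 0.61 ± 0.13 (adjusted p = 0.0161). At DDX58, which encodes the RNA sensor RIG-I, 3 distal regions fell in both comparisons with DMSO, with log2 changes of -2.17 to -2.82 in osimertinib DTP and -2.93 to -4.62 in the combination group. Fits that left out 1 library are not given for these further genes, so their calls cannot be taken as steadier than those of members. Over all genes, osimertinib DTP had 344 promoter sums called higher and 412 lower, but 3 and 8 without DMSO replicate 2.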

How the data were processed

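H3K27ac ChIP-seq of 9 H1975 libraries, 3 per group, and 1 pooled input was analysed. The authors deposited raw read counts, with no normalization, for 169637 regions, and an annotated table of 67387 of them with class, gene and distance. Per the labels' processing notes, BWA 0.7.17, MACS2 2.2.6, featureCounts 2.0.0, ChIPseeker 1.29.1 and hg38 were named. The treatment of duplicate reads was not given in the sources used here. The authors also deposited 1 peak list per library, with a score, fold (a ratio), −log10 p and −log10 q. Only whether a peak overlapped a region (1 base or more) was used.

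Regions were filtered with filterByExpr (minimum count 10), scaled with TMM and tested with the quasi-likelihood test of edgeR 4.0.16 (R 4.3.3) in 1 fit of 9 libraries, with Benjamini-Hochberg adjustment over 157919 regions. All 136 member regions passed the filter. Promoter and distal counts were also summed per gene and fitted over all genes. SE was derived from the F statistic. The scripts were tested on simulated data. Members, lists and tests were chosen with earlier results of these data known. Named were up to 12 called regions per direction and comparison, each gene's main promoter and called sums. Alternatives included DESeq2 1.42.0 and voom weights (limma 3.58.1). Same-numbered DMSO and osimertinib DTP libraries deviated together (Pearson correlation 0.334, 0.355 and 0.324 across regions). Libraries with different numbers were not compared, so this does not show that the numbers are pairs. The main fit used no pairing. An alternative fit added a block for the replicate number over all 9 libraries, the combination group included. It left 10 calls in osimertinib DTP against DMSO. Counting error and spread between cultures limit precision.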

Additional observations from a re-analysis of the deposited data

How the results depend on the processing

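Counts of called member regions depended on the settings, and no named call changed sign under any of them. In osimertinib DTP against DMSO, the 10 calls became 24 (17.6% of members, 30.7% of all annotated regions) with only the libraries of both groups. They became 31 (22.8% and 36.2%) with library quality weights. With 1 library left out they numbered 2 (1.5% and 1.3%, without DMSO replicate 2) to 23 (16.9% and 31.5%, without combination replicate 3). In the combination group against DMSO, the 22 became 14 (10.3% and 15.1%) with only both groups and 59 (43.4% and 49.3%) with quality weights. Leaving out 1 library gave 8 (5.88% and 9.45%, without DMSO replicate 3) to 45 (33.1% and 36.3%, without combination replicate 3). In the combination group against osimertinib DTP, quality weights gave 3 calls (2 higher, 1 lower) where the main count was 0. That is 2.21% of members and 4.17% of all annotated regions. Leaving out 1 library gave 0 in every fit. DESeq2, library size without TMM, a loess offset, no filter, the annotated regions alone, the replicate block and counts corrected for saturation moved none of these totals by over 1.5 times.

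Summed promoters called went from 0 to 6 (17.1% of members, 25.4% of all genes) with quality weights in osimertinib DTP against DMSO. In the combination group against DMSO the 5 became 2 with only both groups (5.71% and 10.5%). They became 3 with the replicate block (8.57% and 11.9%) and 16 with quality weights (45.7% and 42.1%). Fits without 1 library called 0 (0% and 5.075%, without DMSO replicate 2) to 11 (31.43% and 25.03%, without combination replicate 3). Called distal sums went from 4 to 8 with only both groups (50% of members, 51.2% of all genes) and 8 with quality weights (59.7% of all genes) in osimertinib DTP. In the combination group they went to 10 with quality weights (62.5% and 63.0%). Leaving out 1 library gave 3 (18.75%, and 19.9% to 23.6% of all) to 8 (50% and 52.1%) in osimertinib DTP. In the combination group it gave 4 (25%, and 28.3% to 42.1% of all) to 9 (56.25% and 54.4%). The cause was not tested. Quality weights were lowest for combination replicate 3 (0.144) and osimertinib DTP replicate 2 (0.412). Same-number correlations of the combination libraries were uneven, both with osimertinib DTP (0.243, 0.0262 and -0.240) and with DMSO (-0.0183, 0.553 and 0.362). The block changed 4 named calls, given above, and no other. All were in the combination group against DMSO, where it is not known whether the numbers are pairs. Library size without TMM ended the calls of IRF1 in osimertinib DTP, of both IFIT2 regions, of the NLRC5 promoter region and sum, UBE2L6 and OAS3. No filter on low counts ended that of UBE2L6. Only the libraries of both groups ended those of IFIH1, OASL, UBE2L6, the NLRC5 promoter region and sum, the IFIT2 region in LIPA, ISG20 and MX1 sums. Combination replicate 3 had the lowest total, the highest promoter share and the lowest distal share of member counts, and no fit at matched depth was run.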
